A study of Mus musculus with 9 samples.

Results

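The suppressive mediators of regulatory T cells described here are 9 genes chosen by name: Il10, Ebi3, Il12a, Fgl2, Penk, Areg, Nrp1, Klrg1 and Izumo1r. Of these, 8 had a named probe set on the array, with 12 probe sets in all, out of 18193 genes and 45037 probe sets tested. Areg, which encodes the repair growth factor amphiregulin, had no probe set under its symbol in the platform annotation and was not analysed here. For each gene the probe set with the highest mean over the arrays stood for it, and 6 genes had only 1.

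RNA of mouse CD4 T cells was hybridised to 9 Affymetrix Mouse Genome arrays, 3 biological replicates in each of 3 groups. All cells came from Foxp3EGFP mice, which carry a green fluorescent reporter of the regulatory T cell factor Foxp3, on a C57BL/6 (B6) background. In the iTreg groups, purTGFβ_iTreg and pltTGFβ_iTreg, spleen CD4+EGFP– cells were stimulated for 72 hours. For these groups plates were coated with anti-CD3 at 2.5 µg/ml, and the medium held IL2 at 100 U/ml and anti-CD28 at 1 µg/ml. The labels give these doses for no Tconv sample. In the purTGFβ_iTreg group the culture also held purified TGFβ1 (5 ng/ml), and in the pltTGFβ_iTreg group a freeze/thaw lysate of platelets from wild type C57BL/6 mice served as the TGFβ source. The remaining group, Tconv, stands for conventional T cells. How Tconv cells were cultured is not settled by the labels, because one treatment note, given for all 9 samples, describes Tconv cells with TGFβ1. The labels give no age, do not state the TGFβ concentration reached with lysate, and leave unsaid whether EGFP-positive cells were isolated from the iTreg cultures for RNA.

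Regulatory T cells restrain other T cells by several routes. IL10 is a secreted cytokine that quiets antigen-presenting cells and effector T cells. The Ebi3 and Il12a products pair to form IL35, and each also takes part in another cytokine, Ebi3 with p28 in IL27 and Il12a with p40 in IL12. Fgl2 encodes a secreted fibrinogen-like protein that binds inhibitory Fc receptors. Penk encodes the precursor of the enkephalins, opioid peptides that regulatory T cells of some tissues make. Nrp1 is a co-receptor for semaphorins and VEGF and also binds TGFβ. It is widely used as a marker of regulatory T cells that arise in the thymus. Klrg1 is an inhibitory lectin-like receptor for cadherins that marks highly differentiated cells. Izumo1r encodes FR4, a folate receptor family protein of regulatory and anergic T cells.

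The groups were first checked against markers. T cell genes were bright on every array, but Cd4 itself fell in both iTreg groups, from 8.30 to 8.89 in Tconv to 7.82 to 8.03 in purTGFβ_iTreg and 7.88 to 8.16 in pltTGFβ_iTreg (log2 changes -0.72 and -0.62). Cd5 fell as well (-0.84 and -0.59), and so did Cd247 in purTGFβ_iTreg (-0.65). Cd2 and Cd28 rose in pltTGFβ_iTreg (0.52 and 0.78). On main probe sets no other change against Tconv passed among the 9 measured CD4 T cell markers. Some markers of other lineages also moved, and their part in the results was not tested. The CD8 gene Cd8b1 fell by 0.98 and 1.04. Cd8a, the other CD8 gene measured, changed by -0.05 and -0.20 without passing, and 1 of its other 4 probe sets passed as higher in purTGFβ_iTreg (0.69). The NK cell gene Klrd1 rose 9.01-fold and 3.73-fold and was lower with platelet lysate than with purified TGFβ1 (-1.27), the same order of groups as Nrp1. Eomes and Gzma, on the same list, went the other way between the iTreg groups, higher with platelet lysate by 1.38 and 1.27. Against Tconv, Eomes fell by 1.31 in purTGFβ_iTreg and changed by 0.08 in pltTGFβ_iTreg without passing. Gzma changed by -0.18 without passing and rose by 1.09. The integrin gene Itgb3, on the platelet list, was 8.08-fold and 2.41-fold lower, in the same order as Penk. The other Itgb3 probe set fell by 0.69 in purTGFβ_iTreg. It changed by -0.44 in pltTGFβ_iTreg and by 0.26 between the iTreg groups, both without passing. Summed over 7 NK and innate lymphoid markers the linear level was 228 to 257 in Tconv, 248 to 318 in purTGFβ_iTreg and 296 to 331 in pltTGFβ_iTreg, and over 11 platelet markers 475 to 495, 252 to 278 and 290 to 320. Foxp3 read 3.66 to 3.90 over all 9 arrays and differed between no groups by the test. The defining factor of the iTreg label was thus not measurably higher in the iTreg arrays by this probe set. Foxp3 had 1 probe set, and its readings may be background, so they do not show whether the cells expressed Foxp3. Xist, the RNA of the inactive X chromosome, read 10.63 to 10.94 in Tconv and 3.37 to 3.99 in the iTreg groups, while Eif2s3y on the Y chromosome read 2.59 to 2.82 and 8.82 to 9.18. The Tconv arrays thus read as female and the iTreg arrays as male, so every difference from Tconv below cannot be told apart from a difference between the animals. The direct comparison of the iTreg groups does not carry that difference.

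The comparison of each iTreg group with Tconv asked how cells cultured with either source of TGFβ differ from conventional T cells. Among the mediators, Penk and Ebi3 were lower in both iTreg groups and Nrp1 was higher in both. Il10, Il12a, Fgl2, Klrg1 and Izumo1r did not pass the test against Tconv in either group. To pass, a gene needed a limma adjusted p below 0.1 together with a log2 change of more than 0.5 in size, close to the authors' cutoffs of 1.4-fold and 10% false discovery. With purTGFβ_iTreg 3 of 8 measured mediators passed, 1 higher and 2 lower, where 29.3% of all genes did. With pltTGFβ_iTreg the count was again 3 of 8, against 28.5% of all genes. Izumo1r, 1.41-fold lower there, missed the log2 cutoff of 0.5 but exceeded 1.4-fold. The median log2 change of the 8 was -0.31 and -0.15, beside -0.17 and -0.16 over all genes. With no fold cutoff 6 of 8 passed in purTGFβ_iTreg and 4 of 8 in pltTGFβ_iTreg, where 63.4% and 60.4% of all genes did. At a stricter cutoff (adjusted p under 0.05, log2 change above 1) 3 of 8 passed in each, where 11.2% and 10.1% did. Both Tconv comparisons used the same Tconv arrays.

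The direct comparison set the platelet source directly against the purified protein. Here 2 of 8 mediators passed, Nrp1 and Penk, where 4.11% of all genes did. At the stricter cutoff only Nrp1 passed, where 0.929% of all genes did, and with no fold cutoff 2 of 8 passed, where 9.72% did. In both, pltTGFβ_iTreg stood between Tconv and purTGFβ_iTreg. The median log2 difference of the 8 was 0.04, beside 0.01 over all genes.

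**Figure D1:**
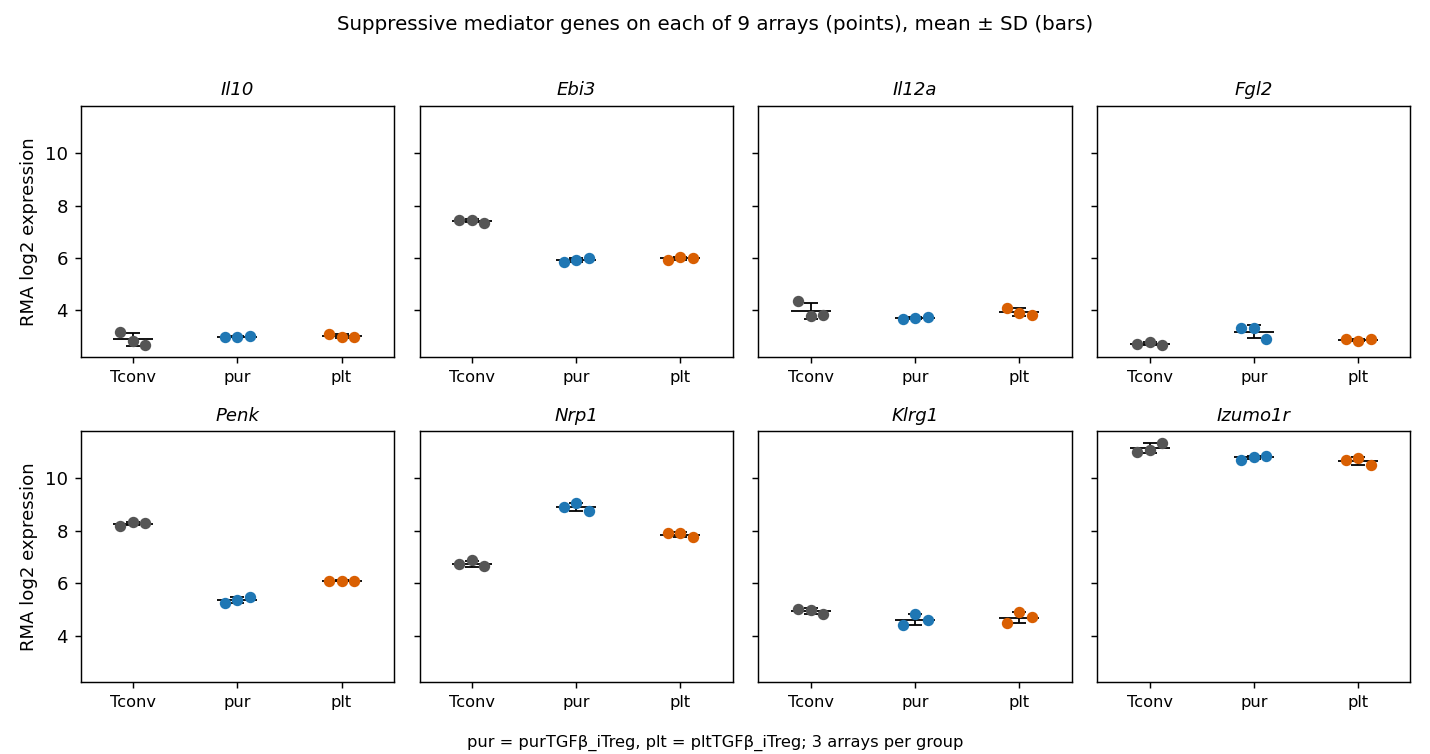
RMA log2 expression of the 8 measured mediators (y axis) on each array (points) of Tconv, purTGFβ_iTreg and pltTGFβ_iTreg, with the mean and SD of 3 arrays as bars. Penk and Ebi3 were highest in Tconv and Nrp1 was lowest there, while Il10 stayed between 2.69 and 3.18 on all arrays. Levels of different probe sets cannot be set against each other.

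**Figure D2:**
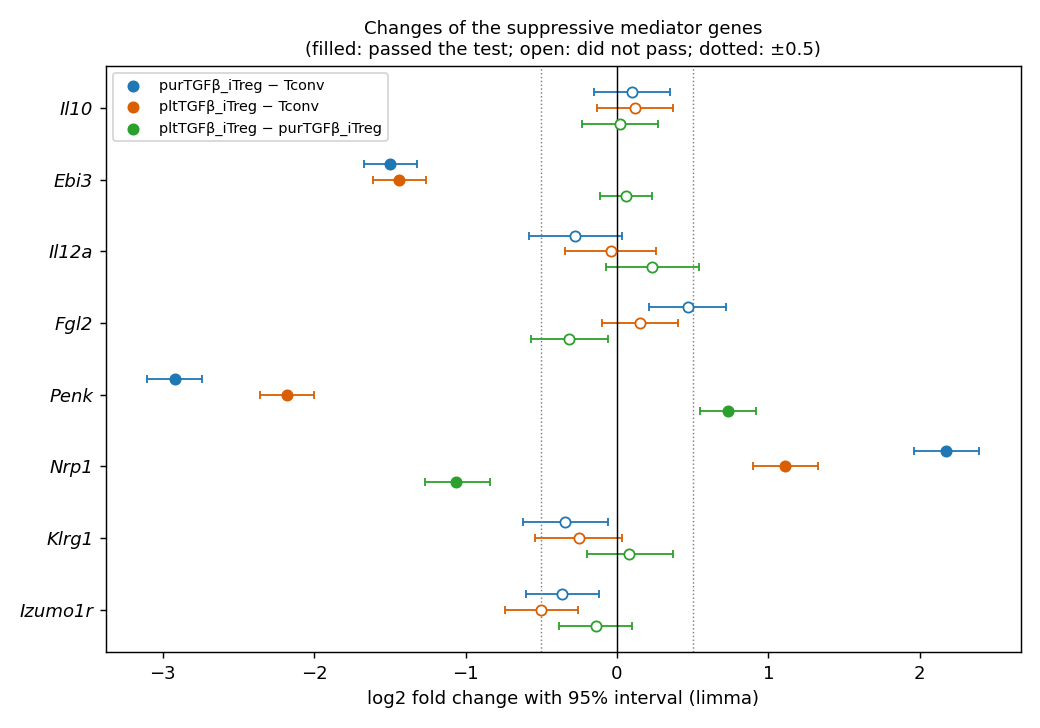
Log2 fold change (x axis) of each mediator in the 3 comparisons, with 95% intervals from limma. Filled points passed the test (Penk and Nrp1 in 3 comparisons, Ebi3 in 2) and dotted lines mark a log2 change of 0.5 in either direction.

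The upstream sequences of Ebi3 and Nrp1 are shown because both genes passed against Tconv and moved in opposite directions. Promoter sequences (RefSeq, GRCm38.p6), each reaching from 250 bases before to 50 bases after a gene start, were found for 5 of the 8 measured mediators: Ebi3, Il12a, Fgl2, Nrp1 and Izumo1r. Capitals mark matches to 6 motifs searched on both strands: CAGAC for SMAD proteins, GCGTG for the aryl hydrocarbon receptor (AHR), TGANTCA for AP-1, TGACGTCA for the cyclic AMP response element, TTCNNNGAA for STAT and GTAAACA for FOXO. The Ebi3 sequence lies at chr17:55952373-55952672 and the Nrp1 sequence at chr8:128358823-128359122, both on the plus strand.
Ebi3: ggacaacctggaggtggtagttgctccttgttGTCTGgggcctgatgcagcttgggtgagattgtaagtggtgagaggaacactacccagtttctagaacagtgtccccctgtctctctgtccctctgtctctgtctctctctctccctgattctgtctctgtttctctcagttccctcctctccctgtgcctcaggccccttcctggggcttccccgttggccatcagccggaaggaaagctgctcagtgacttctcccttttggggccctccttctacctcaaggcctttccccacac
Nrp1: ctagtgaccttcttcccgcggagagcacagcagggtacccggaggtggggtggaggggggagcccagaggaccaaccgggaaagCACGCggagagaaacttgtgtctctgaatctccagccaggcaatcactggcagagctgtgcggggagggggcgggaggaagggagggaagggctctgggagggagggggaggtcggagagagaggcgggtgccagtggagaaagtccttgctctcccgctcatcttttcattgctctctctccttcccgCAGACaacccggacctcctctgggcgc

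The Ebi3 sequence held 1 SMAD match, GTCTG, beginning 218 bases upstream of the start. The Nrp1 sequence held 1 SMAD match 23 bases downstream and 1 AHR match, CACGC, 166 bases upstream. Such matches are common, since 49.6% of the 32851 promoters in the table held the SMAD letters and 32.4% the AHR letters. AP-1, cyclic AMP and STAT letters, held by 7.81%, 1.79% and 8.30% of promoters, and FOXO letters, held by 3.65%, were in neither of these windows. Fgl2 was the only one of the 5 with an AP-1 match (TGAGTCA, 16 bases upstream) and a STAT match (TTCTGGGAA, 36 bases upstream).

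Penk showed the largest change of the 8 mediators against Tconv. Tconv arrays read 8.20, 8.34 and 8.28, purTGFβ_iTreg arrays 5.25, 5.34 and 5.48 and pltTGFβ_iTreg arrays 6.10, 6.10 and 6.09 on the log2 scale. All 6 iTreg arrays were below all Tconv arrays, and the iTreg groups did not overlap each other. Penk was 7.56-fold lower in purTGFβ_iTreg (log2 change -2.92 ± 0.08, SE, 95% interval -3.10 to -2.74, limma adjusted p = 3.73e-10). In pltTGFβ_iTreg it was 4.54-fold lower (-2.18 ± 0.08, -2.36 to -2.00, limma adjusted p = 6.03e-09). Between the iTreg groups it was 1.66-fold higher with platelet lysate (0.73 ± 0.08, 0.55 to 0.92, limma adjusted p = 2.64e-04). The order of levels was Tconv, pltTGFβ_iTreg, purTGFβ_iTreg, and each neighbour differed by the test. In the pltTGFβ_iTreg group 2 of the 3 deposited Penk values were identical, so its SD may understate the spread between cultures. Any 2 arrays shared identical values for 1.69 to 4.96% of probe sets. Penk had 1 probe set, so no other reading of the gene was at hand.

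The genes for enkephalin receptors and for a peptidase that degrades enkephalins were also measured. The receptor genes Oprd1, Oprm1 and Oprk1 changed by -0.05, -0.44 and -0.14 with purTGFβ_iTreg and by -0.21, -0.41 and -0.11 with pltTGFβ_iTreg on the log2 scale, and none passed. Without purTGFβ_iTreg replicate 1 the Oprm1 change was -0.53 and passed. Mme, which encodes that peptidase, neprilysin, changed by -0.26 and -0.30 and did not pass either. Detection calls were not used here, so how far these dim probe sets lie above background is unknown.

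Nrp1 was the only measured mediator that passed as higher in the iTreg groups than in Tconv. On its main probe set Tconv arrays read 6.72, 6.87 and 6.65, purTGFβ_iTreg arrays 8.90, 9.07 and 8.77 and pltTGFβ_iTreg arrays 7.90, 7.90 and 7.76 (log2). The 3 groups did not overlap. Nrp1 rose 4.50-fold in purTGFβ_iTreg (log2 change 2.17 ± 0.10, SE, 95% interval 1.96 to 2.39, limma adjusted p = 1.34e-08) and 2.16-fold in pltTGFβ_iTreg (1.11 ± 0.10, 0.90 to 1.33, limma adjusted p = 2.76e-06). With platelet lysate it was 2.08-fold lower than with purified TGFβ1 (-1.06 ± 0.10, -1.27 to -0.84, limma adjusted p = 5.99e-05). The order was purTGFβ_iTreg, pltTGFβ_iTreg, Tconv, and each neighbour differed by the test.

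The other 3 Nrp1 probe sets ran in the same order of group means. Against Tconv they were higher by 1.00 to 1.88 on the log2 scale in purTGFβ_iTreg, and all 3 passed. In pltTGFβ_iTreg they differed by 0.49, 0.82 and 0.51. The first of these (1.41-fold) did not reach the log2 cutoff of 0.5, though it exceeded the authors' 1.4-fold. Between the iTreg groups they differed by -0.97, -1.06 and -0.49, and the last did not pass (limma adjusted p = 0.212). For that probe set all 3 pltTGFβ_iTreg arrays held the identical value, 5.91. Over all probe sets of the array 25.8%, 25.3% and 3.25% passed in the 3 comparisons.

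**Figure D3:**
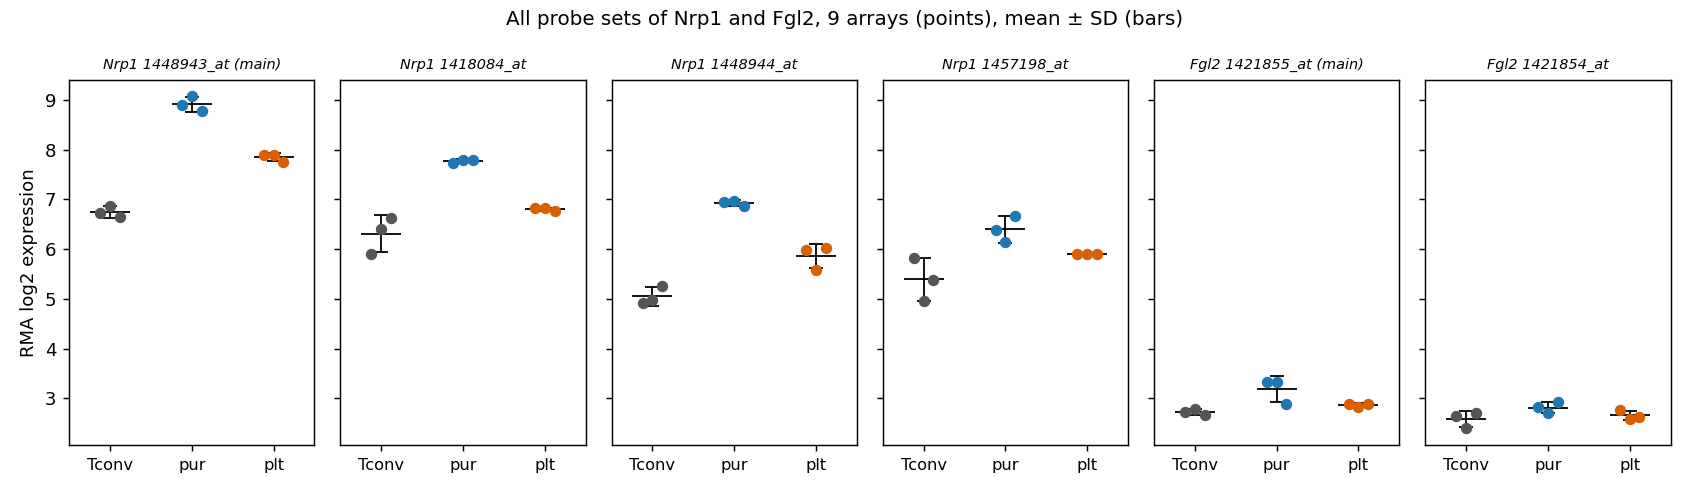
RMA log2 expression (y axis) on each of 9 arrays (points) for the 4 probe sets of Nrp1 and the 2 of Fgl2, with group mean and SD as bars. Every Nrp1 probe set had its highest mean in purTGFβ_iTreg and its lowest in Tconv, and both Fgl2 probe sets read between 2.40 and 3.34 throughout.

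Among ligands and plexin partners of Nrp1, Sema4a changed most. Sema4a, a semaphorin that binds Nrp1 on regulatory T cells, read 6.41 to 6.77 in Tconv, 3.89 to 4.25 in purTGFβ_iTreg and 5.00 to 5.01 in pltTGFβ_iTreg. It was 5.82-fold and 3.02-fold lower than in Tconv (limma adjusted p = 1.07e-08 and 4.11e-07), and 1.93-fold higher with platelet lysate than with purified TGFβ1. Its other probe set fell by 2.39 and 2.04 against Tconv on the log2 scale, and differed by 0.35 between the iTreg groups without passing. The plexin gene Plxna1 fell by 0.71 in purTGFβ_iTreg and changed by -0.45 in pltTGFβ_iTreg without passing, and its other probe set passed in neither. Plxnc1 fell by 0.71 in purTGFβ_iTreg, but its other 5 probe sets ranged from -1.06 to 0.06 and only 3 of them passed. Vegfa, the angiogenic growth factor, fell by 0.71 with platelet lysate (limma adjusted p = 5.40e-04) and changed by -0.20 with purified TGFβ1 without passing. The direct difference was -0.51 (limma adjusted p = 0.0309), and -0.38 without pltTGFβ_iTreg replicate 3 or -0.47 without purTGFβ_iTreg replicate 3, neither passing. Its other probe set differed by 0.33 and -0.40 against Tconv, without passing, and by -0.73 between the iTreg groups, which passed.

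Ebi3 fell in both iTreg groups. Tconv arrays read 7.46, 7.45 and 7.35, purTGFβ_iTreg arrays 5.85, 5.91 and 6.01 and pltTGFβ_iTreg arrays 5.93, 6.02 and 6.00 (log2). The iTreg groups overlapped each other and lay below all Tconv arrays. Ebi3 was 2.82-fold lower in purTGFβ_iTreg (log2 change -1.50 ± 0.08, SE, 95% interval -1.67 to -1.32, limma adjusted p = 4.08e-08) and 2.70-fold lower in pltTGFβ_iTreg (-1.44 ± 0.08, -1.61 to -1.26, limma adjusted p = 7.21e-08). The difference between the iTreg groups was 0.06, with an interval of -0.11 to 0.23.

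B cells and dendritic cells also express Ebi3, and some of their markers were higher in Tconv too. The B cell gene Cd79b read 5.76 to 6.15 in Tconv and 4.04 to 4.66 in the iTreg groups, and the class II gene H2-Ab1 6.23 to 6.78 and 4.62 to 4.91. Of 8 measured B cell markers only Cd79b passed in either comparison with Tconv. Their summed linear level was 216 to 229 in Tconv, 149 to 167 in purTGFβ_iTreg and 152 to 170 in pltTGFβ_iTreg. Of 7 dendritic cell markers H2-Ab1 passed in both, and Zbtb46 in pltTGFβ_iTreg (-0.51), which without Tconv replicate 1 (-0.35) or pltTGFβ_iTreg replicate 1 (-0.45) did not pass. Of its other 3 probe sets 1 passed in both, with changes of -1.74 and -1.69. The sums of the 7 were 1537 to 1598, 1403 to 1561 and 1687 to 1829, most of which came from Ccr7, which T cells also express. The B cell genes Cd79a, Ms4a1 and Pax5 read 3.44 to 4.32 on every array. In bulk RNA, fewer cells of a type and less RNA per cell cannot be told apart, and the part of such cells in the Ebi3 difference was not tested.

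Il12a, the partner of Ebi3 in IL35, read 4.34, 3.78 and 3.82 in Tconv, 3.66, 3.71 and 3.74 in purTGFβ_iTreg and 4.10, 3.90 and 3.81 in pltTGFβ_iTreg (log2). The highest Tconv array stood apart from the other two. The changes against Tconv were -0.28 (95% interval -0.58 to 0.03) and -0.04 (-0.34 to 0.26), and neither passed (limma adjusted p = 0.122 and 0.826). The direct difference was 0.23 (-0.07 to 0.54). Il12b, which encodes the p40 partner in IL12, changed by -0.14 and -0.09 without passing, and Il27 had no named probe set.

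Receptor genes for these cytokines changed in both directions. Il12rb1, the IL12 and IL23 receptor chain, read 9.39 to 9.78 in Tconv, 8.05 to 8.16 in purTGFβ_iTreg and 8.66 to 8.79 in pltTGFβ_iTreg. It fell 2.94-fold and 1.86-fold against Tconv, and was 1.58-fold higher with platelet lysate than with purified TGFβ1 (limma adjusted p = 0.00331). Il12rb2, a chain of the IL12 and IL35 receptors, changed by -0.30 in purTGFβ_iTreg without passing and rose by 0.84 in pltTGFβ_iTreg, a direct difference of 1.14 ± 0.14 (SE, limma adjusted p = 5.30e-04). Il6st, which encodes gp130, a chain of the IL27 and IL35 receptors, rose by 0.89 in purTGFβ_iTreg. In pltTGFβ_iTreg it changed by 0.28 without passing, and the direct difference was -0.61 (limma adjusted p = 0.0137). Its other 3 probe sets differed by 0.29 to 1.57 in purTGFβ_iTreg, where 2 passed, and by -0.08 to 0.98 in pltTGFβ_iTreg, where 1 passed. Il27ra changed by -0.37 and -0.21, under the fold cutoff.

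Il10 gave no difference that passed. Its probe set read 3.18, 2.83 and 2.69 in Tconv, 2.99, 2.98 and 3.03 in purTGFβ_iTreg and 3.10, 2.99 and 2.98 in pltTGFβ_iTreg (log2). All groups overlapped. The changes against Tconv were 0.10 (95% interval -0.15 to 0.35, limma adjusted p = 0.499) and 0.12 (-0.13 to 0.37, limma adjusted p = 0.417), and the direct difference was 0.02 (-0.23 to 0.27). RMA compresses values near background, so a small change of a dim gene such as this may be understated. The receptor genes Il10ra and Il10rb changed by -0.22 and 0.47 in purTGFβ_iTreg and by 0.11 and 0.37 in pltTGFβ_iTreg on their main probe sets, all without passing. The other Il10rb probe set passed in purTGFβ_iTreg (0.64), and the main one did without Tconv replicate 1 (0.55).

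Genes of factors known to act on Il10 in T cells did change. Of 16 measured, 5 were higher and 6 lower in purTGFβ_iTreg, and 6 were higher and 5 lower in pltTGFβ_iTreg. Over all genes 14.5% were higher and 14.9% lower in the first comparison, and 13.9% and 14.7% in the second. The median log2 change of the list was 0.27 and 0.16, beside -0.17 and -0.16 over all genes. Maf, which activates Il10, rose 89.5-fold and 34.9-fold, and its other 5 probe sets differed by 0.47 to 4.21 and 0.06 to 2.54 on the log2 scale, with 4 of the 5 passing in each. Ahr, the ligand-activated receptor gene, rose 47.2-fold and 19.6-fold, but its other probe set changed by 0.30 and 0.04 without passing. The Tconv readings of Maf (3.60 to 3.78) and Ahr (3.36 to 3.59) may be background, in which case these folds are not exact. Jun, an AP-1 subunit, rose 8.77-fold and 5.12-fold. Nfil3, a basic leucine zipper factor, was 5.18-fold and 4.34-fold lower. Batf, Junb and Gata3 of the same list fell by 1.80, 1.49 and 2.56 in purTGFβ_iTreg and by 1.31, 1.19 and 2.14 in pltTGFβ_iTreg (log2). How the changes of these factors bear on Il10 was not tested. Bhlhe40, a repressor of Il10, was 2.83-fold and 1.63-fold lower, and Prdm1, which encodes Blimp1, rose by 0.57 with platelet lysate and changed by 0.41 with purified TGFβ1 without passing. Without pltTGFβ_iTreg replicate 3 the first was 0.49 and did not pass, and without purTGFβ_iTreg replicate 1 the second was 0.52 and passed. Between the iTreg groups 3 of the 16 were higher with platelet lysate and 4 lower, where 1.54% and 2.57% of all genes were. Among the lower was Bcl6 (-0.64, limma adjusted p = 2.86e-04), whose other probe set (-0.17) did not pass. Against Tconv, Bcl6 changed by 0.24 and -0.41 on its main probe set without passing. The other Bcl6 probe set changed by -0.38 without passing in purTGFβ_iTreg and by -0.56 in pltTGFβ_iTreg, which passed.

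Fgl2 read 2.73, 2.78 and 2.66 in Tconv, 3.34, 3.34 and 2.89 in purTGFβ_iTreg and 2.89, 2.83 and 2.89 in pltTGFβ_iTreg on its main probe set (log2). The highest readings were in purTGFβ_iTreg, whose replicate 3 lay with the pltTGFβ_iTreg arrays. The change in purTGFβ_iTreg was 0.47 ± 0.12 (SE, limma adjusted p = 0.00623), short of the fold cutoff, and in pltTGFβ_iTreg 0.15 ± 0.12 (limma adjusted p = 0.315). Without purTGFβ_iTreg replicate 3 the first change was 0.62 and passed. It also passed under quantile normalization (0.55) and with centred array medians (0.53). The other Fgl2 probe set differed by 0.23 and 0.08. Fcgr2b, the inhibitory Fc receptor to which the Fgl2 protein binds, fell by 0.58 and 0.60, but only 1 of its other 4 probe sets passed in each comparison, and without Tconv replicate 1 the first was -0.48 and did not pass.

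Klrg1 read 5.02, 4.98 and 4.81 in Tconv, 4.39, 4.81 and 4.59 in purTGFβ_iTreg and 4.46, 4.88 and 4.70 in pltTGFβ_iTreg (log2). The groups overlapped. Its changes against Tconv were -0.34 ± 0.13 and -0.25 ± 0.13 (SE, limma adjusted p = 0.0489 and 0.129), and neither reached the fold cutoff. Cdh1, which encodes E-cadherin, a ligand of Klrg1, went from 2.48 to 2.60 on the Tconv arrays to 5.66 to 5.78 in purTGFβ_iTreg and 5.84 to 6.11 in pltTGFβ_iTreg. It rose 9.09-fold and 10.8-fold (limma adjusted p = 3.47e-10 and 3.39e-10), from a Tconv reading that may be background, and the direct difference of 0.25 did not pass. N-cadherin, encoded by Cdh2 and another ligand, changed by -0.22 and -0.08 without passing.

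Izumo1r read 11.02, 11.09 and 11.36 in Tconv, 10.72, 10.82 and 10.86 in purTGFβ_iTreg and 10.72, 10.77 and 10.50 in pltTGFβ_iTreg (log2). Every iTreg array was below every Tconv array, by a small step. The change was -0.36 ± 0.11 in purTGFβ_iTreg and -0.498 ± 0.11 in pltTGFβ_iTreg (SE, limma adjusted p = 0.0178 and 0.00283). Both passed on p and missed the log2 cutoff of 0.5 used here, the second narrowly. At 1.41-fold the second exceeded the authors' cutoff of 1.4-fold. Without Tconv replicate 1 or 2, or pltTGFβ_iTreg replicate 1 or 2, the second value was -0.53 to -0.57 and passed, as it did under quantile normalization (-0.53). Without Tconv replicate 3 it was -0.40. The probe set is of a type that can match several transcripts of a gene family.

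For Areg, which has no values here, the shedding protease and receptor were measured. Adam17, which releases amphiregulin from the membrane, rose 2.24-fold and 2.40-fold against Tconv (limma adjusted p = 1.11e-06 and 6.60e-07). Its other 2 probe sets rose as well, by 0.95 to 1.55 and 1.11 to 1.71 on the log2 scale. Egfr, the receptor, fell by 0.55 and 0.66 on its main probe set, but only 1 of its other 6 probe sets passed, and that in purTGFβ_iTreg. Without Tconv replicate 1 the changes were -0.38 and -0.50 and did not pass.

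The list of partners and receptors of the mediators held 30 measured genes. In purTGFβ_iTreg 3 were higher and 8 lower than in Tconv, in pltTGFβ_iTreg 3 and 7. Over all genes 14.5% were higher and 14.9% lower in the first comparison, and 13.9% and 14.7% in the second. The median log2 change of the list was -0.30 and -0.28, beside -0.17 and -0.16 over all genes. Without Tconv replicate 1 the lower counts were 5 and 4, and with probe sets averaged per gene 4 and 4. Between the iTreg groups 4 were higher and 2 lower with platelet lysate, and 1 lower without replicate 3 of either iTreg group. Over all genes 1.54% were higher and 2.57% lower.

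**Figure D4:**
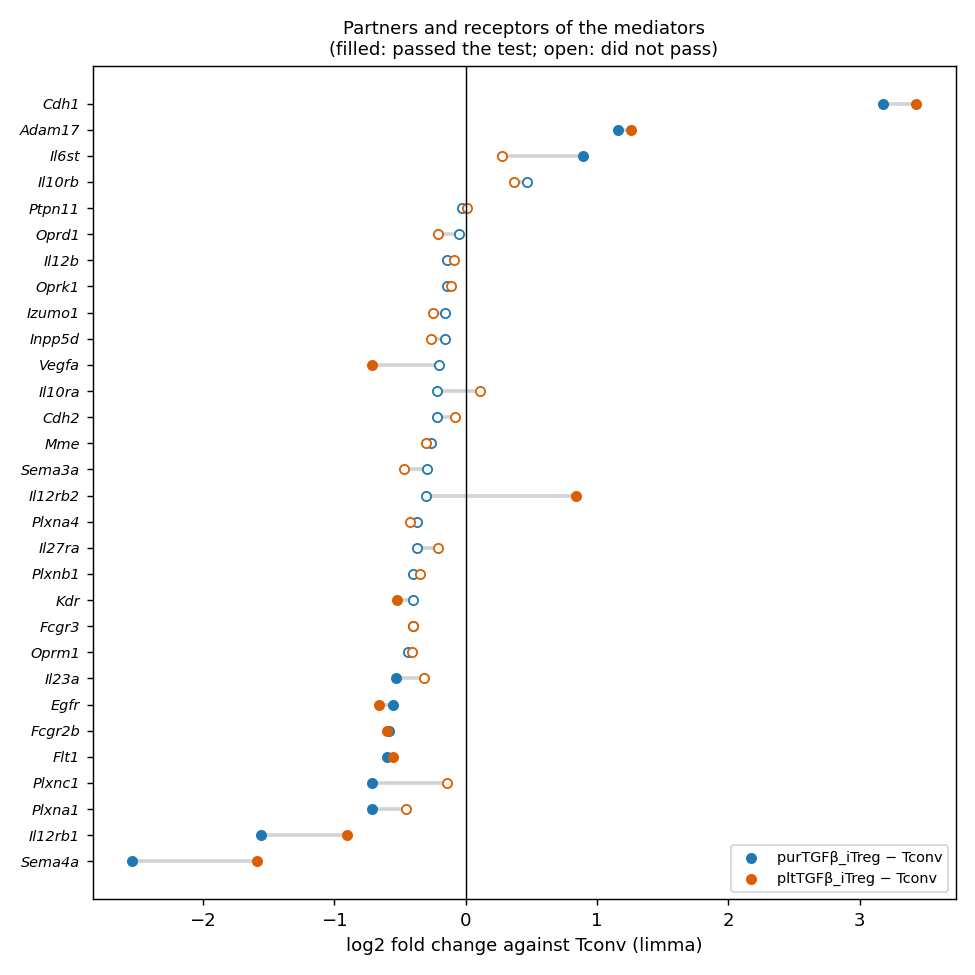
Log2 fold change against Tconv (x axis) of the 30 measured partner and receptor genes, in purTGFβ_iTreg and pltTGFβ_iTreg, joined by a grey line per gene. Filled points passed the test. Cdh1 and Adam17 lie farthest to the right in both groups and Sema4a farthest to the left.

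The mediators that changed were set beside lists of regulatory T cell genes, whose counts stand against 14.5% higher and 14.9% lower of all genes in purTGFβ_iTreg and 13.9% and 14.7% in pltTGFβ_iTreg. Of 8 measured genes tied to regulatory T cells of the thymus, to which Nrp1 is often added, 4 were higher and 2 lower than in Tconv in both iTreg groups. The Ikaros family gene Ikzf2 (Helios) rose 7.98-fold and 5.57-fold, with 1 of its other 2 probe sets passing, and Gpr83, an orphan receptor gene, 10.8-fold and 8.67-fold. Cd83, an activation marker on the same list, was 17.1-fold and 5.27-fold lower. Of 14 genes of effector and tissue regulatory T cells, a state that Klrg1, Il10 and Areg mark, 6 were higher and 6 lower in purTGFβ_iTreg and 5 and 3 in pltTGFβ_iTreg. Il18r1, an IL18 receptor chain, rose 7.86-fold and 9.93-fold, from a Tconv reading (3.73 to 4.20) that may be background, and Gata3, the Th2 factor, was 5.91-fold and 4.41-fold lower. Of 22 genes of suppression other than the mediators, 9 were higher and 9 lower, then 10 and 6, with Nt5e (CD73) and the checkpoint gene Ctla4 among the rises in both. The other 2 Nt5e probe sets ranged from -0.36 to 2.73 and from -0.49 to 1.85 (log2), and 1 passed in each comparison. The lists share genes, such as Cd83, Gpr83, Nt5e and Tnfrsf18 here and Gata3 and Batf with the Il10 factors. Their counts are therefore not separate. The checkpoint gene Lag3 was 5.51-fold and 4.87-fold lower. Gzmb, which encodes the cytotoxic protease granzyme B, was 10.2-fold lower in purTGFβ_iTreg and 3.03-fold higher in pltTGFβ_iTreg.

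The genes whose profile over the 9 arrays was nearest to each changed mediator were found among 16307 genes, by the root mean square difference of log2 values after each gene was centred on its mean. Nearest to Penk were C1qtnf12 (0.08), Casp1 (0.13) and Gimap7 (0.14). Nearest to Ebi3 were Pcca (0.05), Lonp1 (0.08) and Sil1 (0.08). Nearest to Nrp1 were Tnfrsf13b (0.08), Pik3cg (0.13) and Xdh (0.16). These values describe 3 groups of 3 arrays, and with so many genes to search, near profiles are easily found.

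**Figure D5:**
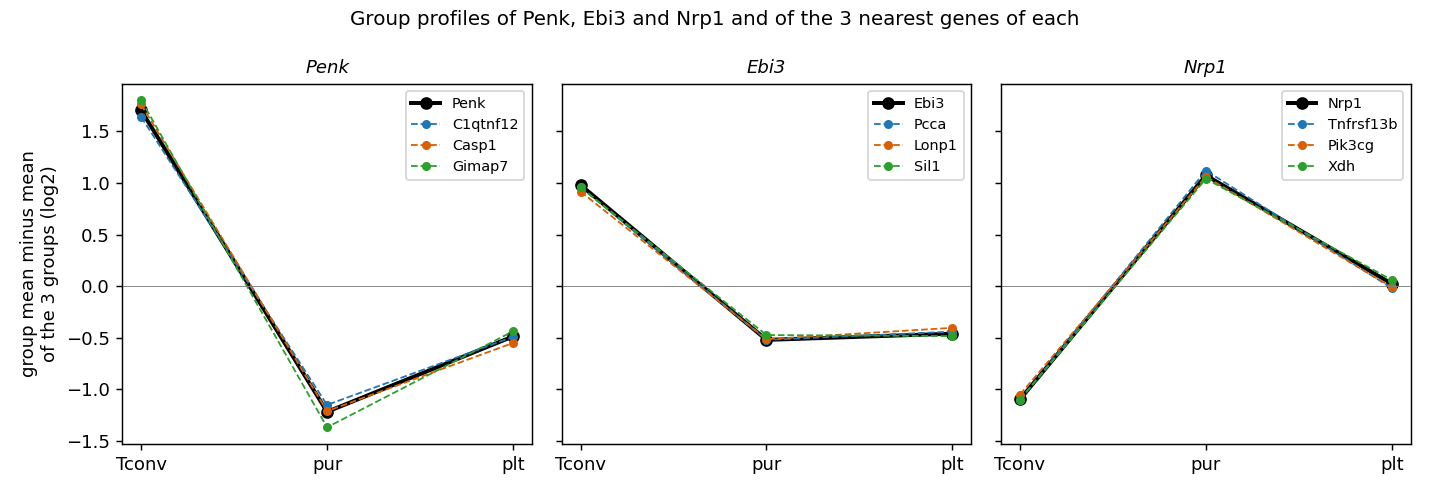
Group means on the log2 scale, each gene centred on the mean of its 3 group means (y axis), for Penk, Ebi3 and Nrp1 (solid) and the 3 genes nearest to each (dashed). Nrp1 and Tnfrsf13b, Pik3cg and Xdh had their highest mean in purTGFβ_iTreg, and Penk and its nearest genes their lowest.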

How the data were processed

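Expression was measured in 9 samples on Affymetrix Mouse Genome arrays. The authors deposited log2 expression values. The series' design text says they were computed by RMA, which corrects background, normalizes the arrays and summarises each probe set, with the Expression Console program. It also gives ANOVA in Partek Genomics Suite 6.6 as the authors' test, a tool the submitters' processing notes list too. Detection calls were not used here.

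Of 45101 probe sets, 64 controls were left out. Symbols came from the platform annotation. A limma model (limma 3.58.1, R 4.3.3) with 1 mean for each group, fitted to all 9 arrays, gave each contrast, two-sided, with Benjamini-Hochberg adjustment over 45037 probe sets. An exact test of 3 against 3 arrays cannot go below 0.1, so none was used. The fit was tested on simulated data. Python 3.11.15 made the plots.

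The members and gene lists were chosen with earlier results of these data known. All members were described. From each list up to 4 genes with the lowest adjusted p in a comparison were named by rule. The partners discussed beside a member (such as Il6st, Vegfa, Fcgr2b, Egfr, Plxna1, Prdm1 and the opioid receptor genes), Junb, Lag3 and the marker genes were named after their values were seen. The number of arrays limits the precision.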

Additional observations from a re-analysis of the deposited data

Results flagged for a closer look

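For Penk and Nrp1 the change against Tconv differed between the iTreg groups by the direct contrast, limma's difference of pltTGFβ_iTreg minus purTGFβ_iTreg. It was 0.73 for Penk and -1.06 for Nrp1 on the log2 scale.

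The same held for 23 other named genes, without counting Eomes (1.38), Gzma (1.27) and Bcl6 (-0.64), which also passed in the direct contrast. Many of the 23 were named for a low adjusted p in this same contrast or after their values were seen. Their number therefore reflects that choice and is not a result. Over all genes 4.11% passed. Higher with platelet lysate were Sema4a (0.95), Il12rb1 (0.66), Il12rb2 (1.14), Plxnc1 (0.57), Bhlhe40 (0.80), Id2 (0.70), Cd83 (1.69), Gzmb (4.95), Icos (0.84), Ctla4 (0.51), Tnfrsf9 (1.88), Tnfrsf18 (0.71) and Itgb3 (1.75). Lower were Maf (-1.36), Ahr (-1.27), Jun (-0.78), Nt5e (-0.92), Itgae (-1.18), Ikzf2 (-0.52), Ikzf4 (-0.51), Il6st (-0.61), Vegfa (-0.51) and Klrd1 (-1.27). No other probe set passed in this contrast for Ahr (-0.26), Ikzf2 (-0.55 to -0.16), Sema4a (0.35) and Itgb3 (0.26). Of the others 1 of 5 passed for Plxnc1, and 1 of 2 each for Tnfrsf9, Id2, Nt5e and Ikzf4. For Maf 4 of 5 passed, for Il6st 2 of 3, and all did for Jun, Icos, Itgae and Vegfa. Under quantile normalization Ikzf2 (-0.49), Ikzf4 (-0.50) and Vegfa (-0.47) no longer passed. Single left-out arrays also ended the calls of Ctla4 (0.45 without purTGFβ_iTreg replicate 2, 0.49 and 0.50 without pltTGFβ_iTreg replicates 1 and 3) and Plxnc1 (0.50 without pltTGFβ_iTreg replicate 3). For Ikzf2 4 left-out arrays did so (pltTGFβ_iTreg replicates 1 and 2 and purTGFβ_iTreg replicates 1 and 3, -0.43 to -0.50), and for Ikzf4 pltTGFβ_iTreg replicate 3 (-0.45) and purTGFβ_iTreg replicate 1 (-0.48).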

How the results depend on the processing

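The changes of Penk, Ebi3 and Nrp1 against Tconv kept their direction and passed under all 19 alternatives each, with log2 ranges of -3.06 to -2.86 and -2.34 to -2.13 for Penk, -1.72 to -1.44 and -1.63 to -1.38 for Ebi3, and 1.63 to 2.24 and 0.73 to 1.17 for Nrp1. Between the iTreg groups Nrp1 passed under all 19 (-1.13 to -0.89), and Penk under all (0.68 to 0.80) but the cutoff of 0.05 and a log2 change above 1. At that stricter cutoff 1 mediator passed between the iTreg groups, and of all genes 2033, 1839 and 169 passed in the 3 comparisons, against 5339, 5194 and 748. With no fold cutoff 6 mediators passed in purTGFβ_iTreg against Tconv, and 11542, 10996 and 1768 of all genes did. Leaving out 1 array in turn, 3 to 4 mediators passed against Tconv in both comparisons and 2 between the iTreg groups. The replicate block changed no count of mediators (3, 3 and 2). Same-numbered arrays deviated together with correlations of -0.123 to 0.262, so the numbers were not taken as pairs, although each iTreg array matched its own number best in the other iTreg group. The signs of Il10 in purTGFβ_iTreg against Tconv and between the iTreg groups, of Il12a in pltTGFβ_iTreg and of Klrg1 between the iTreg groups turned under some left-out arrays, and that of Il12a also under both other scalings, none of them passing. Without the dimmest 40% of probe sets Il10, Il12a and Fgl2 could not be fitted. Of all genes passing, 49.3% and 48.5% were higher than in Tconv, 38.6% and 38.4% under quantile normalization and 56.5% and 55.3% with centred array medians. Other alternatives were an intensity trend with robust variances, unmoderated variances as in the authors' ANOVA and fits restricted to each pair of groups.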
